A study of Enchytraeus crypticus with 60 samples.

Results

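Silver nitrate (AgNO3), the soluble salt of silver, was given in soil to the oligochaete worm *Enchytraeus crypticus* for 3 d at 2 doses, and the worms' RNA was compared with that of worms from un-spiked soil. The groups are AgNO3 EC20 and AgNO3 EC50, named for the concentrations that lower reproduction by 20% and by 50%, and their control CT, each with 3 arrays. These 9 arrays of 60 were chosen by their exposure labels and by no measured value. All 9 held whole-body RNA of adult worms with a developed clitellum, pooled from 20 worms per array, after 3 d in the natural standard soil LUFA 2.2. By their labels, the groups differ only in AgNO3, at its EC20, at its EC50 or absent. The study's methods put these 2 soil concentrations of AgNO3 close together. The arrays also differed in slide, scan day and scanner, as given below. The other arrays of the series held worms exposed to AgNO3 for 7 d, to silver particles with a polyvinylpyrrolidone coat (Ag-NPs PVP-Coated) or none (Ag-NPs Non-Coated), and to the reference nanomaterial Ag NM300K, and worms kept without silver in un-spiked soil for 7 d or in soil with the dispersant of Ag NM300K for 3 and 7 d. A pool of whole worms averages over tissues and animals, so that fewer cells of a type and less RNA per cell cannot be told apart.

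Silver salts release the silver ion, which binds thiol groups of proteins and is toxic to soil invertebrates. Oligochaetes live in contact with pore water and swallow soil, so that body wall and gut are both exposed. The clitellum is the glandular ring that forms the egg cocoons, and reproduction is the standard endpoint of toxicity tests with this worm.

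Each array had 1 probe for each of 43750 sequences of the worm's transcriptome. Of these sequences, 23177 are contigs, put together from several sequencing reads, and 20573 are single reads that joined no contig. The files used here pair the probes with these identifiers and with no gene name, so that no function is given to a probe here. Probes that were positive and significant against background on all 60 arrays were analysed, namely 23179, of which 11180 are on contigs and 11999 on single reads. Levels are log2 of the background-corrected intensity, normalized by the SVCD method described with the processing.

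The median signal of the 9 arrays ranged from 12.6 to 18.5 intensity units, and 67.2% to 83.0% of their gene probes were positive against background. Across probes, the Pearson correlation of log2 levels was 0.946 to 0.979 for the 9 pairs of arrays within a group and 0.941 to 0.979 for the 27 pairs from different groups among the 9 arrays. The spread between the 3 arrays of a group was wide. The median probe had a standard deviation of 0.31 in CT, 0.36 in EC20 and 0.33 in EC50 on the log2 scale, against a median of 0.25 over the 20 groups of the series, and EC20 had the widest of the 20. The mean log2 level of CT was 6.88 ± 0.05 (SD, n = 3), the lowest of the 20 groups, whose median was 7.18. EC20 stood at 7.09 ± 0.04 and EC50 at 7.14 ± 0.02. The normalization aligns the arrays within a group and sets 1 offset per group, so that these SDs are small by its construction and the order of the groups rests on the offsets. The median signals before normalization overlapped, from 13.0 to 16.3 in CT and from 12.6 to 18.5 with AgNO3. Replicate 1 of EC20 was the only array of the 9 read on a second scanner.

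Exposure to either dose went with higher levels of many probes and lower levels of few. At EC20, 2975 of 23179 probes (12.8%) were differentially expressed against un-spiked soil (limma, false discovery rate below 5%), of which 2822 were over-expressed (12.2%) and 153 under-expressed (0.660%). At EC50, 4168 probes (18.0%) were called, 4080 over-expressed (17.6%) and 88 under-expressed (0.380%). The median log2 fold change of all probes was 0.19 at EC20 and 0.28 at EC50, and the changes of single probes are to be read relative to this shift. The over-expressed probes had a median log2 fold change of 0.91 at EC20 and 0.75 at EC50, and the under-expressed probes of -1.20 and -1.14. Changes beyond 1 on the log2 scale were found in 1272 of the called probes at EC20 and in 942 at EC50. The median standard error of a fold change was 0.29 at both doses. After Median normalization, which left the median fold change of all probes at 0.0052 at EC20 and 0.03 at EC50, 861 probes were called at EC20, 78.0% of them over-expressed, and 181 at EC50, 61.9% of them over-expressed, and of the SVCD calls 819 and 175 remained with the same sign.

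The number of calls rested on single arrays and on the spread borrowed from the other groups. Without replicate 3 of CT the calls fell to 617 at EC20 and 328 at EC50, without replicate 2 of EC50 those at EC50 were 425, and without replicates 1, 2 and 3 of EC20 in turn those at EC20 were 6192, 1860 and 1748, of which 68.3% were over-expressed without replicate 3. With only the 6 arrays compared in the model, limma called 0 probes at either dose, with 3498 at EC20 and 4307 at EC50 at an unadjusted p below 5%, and the unmoderated test of the methods, adjusted by Benjamini-Hochberg, called 0 and 1. In all of the 9 fits that each left out 1 of the 9 arrays, 411 of the EC20 calls and 174 of the EC50 calls remained with the same sign.

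**Figure D1:**
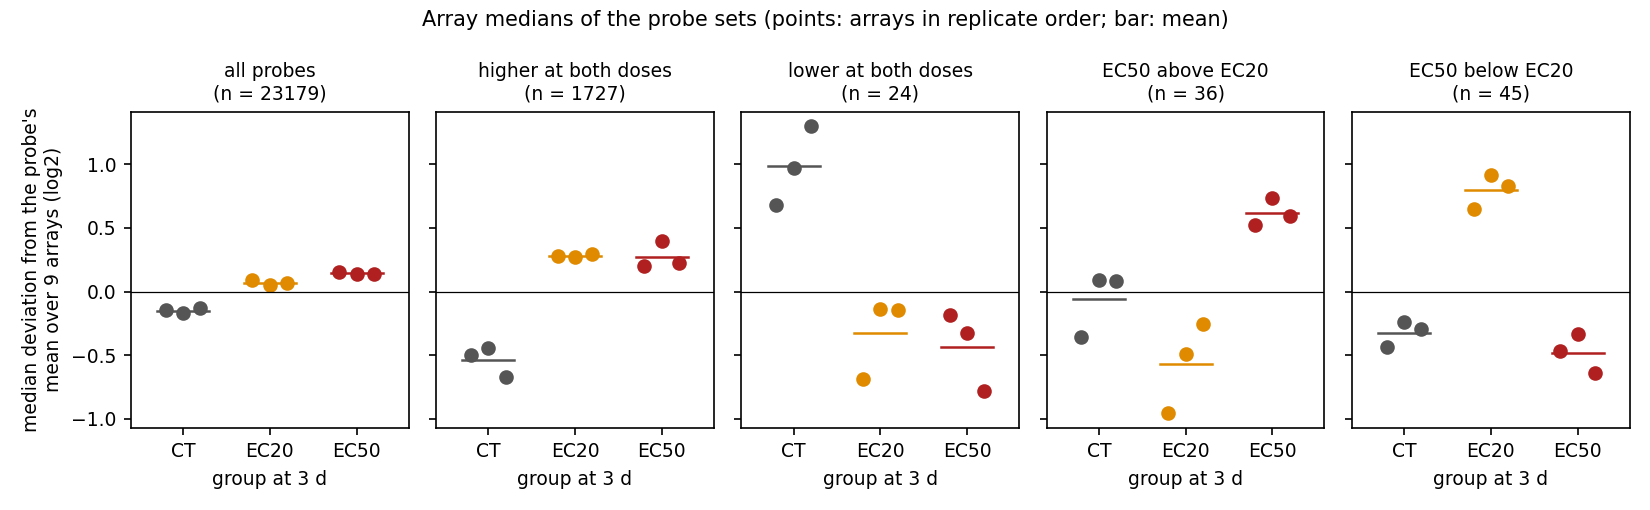
Each point is 1 array at 3 d, with bars for the means of the 3 arrays of a group, and its height is the median over a set of probes of the deviation from the probe's mean over the 9 arrays, on the log2 scale. For all 23179 probes the CT arrays lie between -0.17 and -0.13 and the AgNO3 arrays between 0.05 and 0.15, an order that the group offsets of the normalization set, and the other sets, which the same contrasts chose, describe the calls.

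The 9 arrays lay on 8 slides and were scanned on 4 days. CT and EC50 each had 1 array on day 1 and 2 on day 3. The EC20 arrays were read on days 2, 3 and 4, so that 2 of the 3 share no scan day with CT or EC50. Within the 9 arrays the day and dose of these 2 cannot be told apart. A block for scan day can separate them only through arrays of other groups read on days 2 and 4. With scan day as a block the calls were 2023 at EC20 and 4789 at EC50, and with slide as a block 2297 and 2305. On scan day 3, with 2 CT arrays, 1 EC20 array and 2 EC50 arrays, 341 probes were called at EC20 and 2150 at EC50.

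Where a probe was called at both doses, both calls had the same sign. Of the probes called at either dose (5392), 1751 (7.55% of all probes) were called at both, and 0 of these had opposite signs. They were 58.9% of the EC20 list and 42.0% of the EC50 list. The comparisons share the 3 CT arrays, so that an error in CT enters both and equal signs are favoured by the design. Of the shared calls, 1727 (7.45%) were over-expressed, with a median log2 fold change of 0.83 at EC20 and 0.84 at EC50, and 24 (0.104%) were under-expressed, with medians of -1.50 and -1.26. The 1727 probes were 61.2% of the over-expressed probes at EC20 and 42.3% of those at EC50, and the 24 were 15.7% and 27.3% of the under-expressed. Probes over-expressed at EC20 only numbered 1095 and had medians of 1.02 at EC20 and 0.52 at EC50. Those over-expressed at EC50 only numbered 2353, with 0.39 at EC20 and 0.68 at EC50. Under-expressed at EC20 only were 129 probes, with medians of -1.13 and -0.29, and at EC50 only 64, with -0.47 and -1.05. EC50 minus EC20 was itself called for 37 of the 1224 probes called at EC20 only and 25 of the 2417 called at EC50 only. Of all probes, 0.349% were called in it. Sets called at a single dose, on the same arrays, favour such a difference by their definition.

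**Figure D2:**
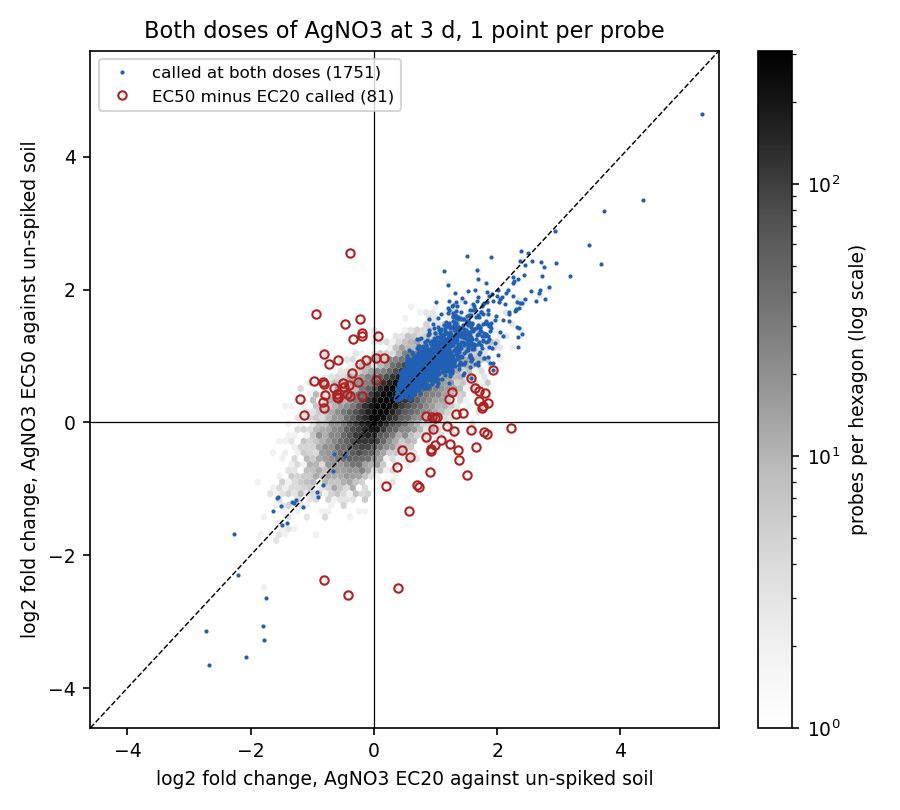
Log2 fold change of each probe at EC20 (x axis) and EC50 (y axis) against the same 3 CT arrays at 3 d, as a density of 23179 probes with a logarithmic grey scale. Blue points are the 1751 probes called at both doses, which lie in the upper right (1727) or lower left (24), and red circles are the 81 probes called between the doses, which lie away from the dashed line of equal change.

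Separation of the arrays was counted without a test, and few of the shared calls held across all settings. In 2927 of the 23151 probes measured on all 9 arrays (12.6%) every AgNO3 array lay above every CT array, and in 141 (0.609%) every one lay below. The 3 EC20 arrays alone lay above CT in 4719 probes (20.4%) and below it in 561 (2.42%), and the 3 EC50 arrays in 6073 (26.2%) and 388 (1.68%). Of the 1727 probes over-expressed at both doses, 60 were called at both doses in all 9 fits that left out 1 array, and 44 of these also after Median normalization. Of the 24 under-expressed probes, 18 were called at both doses after Median normalization and 0 remained called in all 9 fits. The group means had the rising order CT, EC20, EC50 in 35.3% of all probes and CT, EC50, EC20 in 24.7%. They had the order EC20, CT, EC50 in 13.0%, and each remaining order in 7.36% to 9.95%. The group offsets of the normalization put the median probe 0.19 (EC20) and 0.28 (EC50) above CT, so that they favour the first order. Among the 1727 probes, 845 had the order CT, EC20, EC50 and 882 the order CT, EC50, EC20.

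Probes with large changes at both doses and no overlap between CT and AgNO3 are shown with every array. They were taken from the 1196 over- and 18 under-expressed probes that were called at both doses, well above background on all 9 arrays and without overlap between CT and AgNO3, in the order of the smaller of their 2 fold changes. Contig09843 rose most by this measure. Its log2 level was 5.98, 6.52 and 5.74 on the CT arrays, 9.42, 8.59 and 8.52 at EC20, and 8.24, 9.32 and 7.69 at EC50. The lowest AgNO3 array lay above the highest CT array, and the spread was widest at EC50. The log2 fold change was 2.76 ± 0.39 (SE, n = 3 against 3) at EC20, or 6.78-fold (limma adjusted p = 1.85e-05), and 2.34 ± 0.39 at EC50, or 5.05-fold (limma adjusted p = 0.000328). Contig13709 had levels of 4.57, 3.49 and 3.36 in CT, 6.17, 6.48 and 5.58 at EC20, and 6.28, 6.98 and 4.57 at EC50. The groups nearly touched, at replicate 1 of CT and replicate 3 of EC50. Its log2 fold change was 2.27 ± 0.41 at EC20 and 2.14 ± 0.41 at EC50 (limma adjusted p = 0.000353 and 0.00106).

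GYUW2K401DLXG6, a single read, fell most by this measure. Its log2 levels were 12.37, 13.88 and 13.54 in CT, 8.86, 11.34 and 11.43 at EC20, and 11.13, 9.70 and 9.55 at EC50. No AgNO3 array reached the lowest CT array, but the AgNO3 arrays also lay far from each other, and the standard error was wide. The log2 fold change was -2.72 ± 0.83 at EC20 and -3.14 ± 0.83 at EC50 (limma adjusted p = 0.0249 and 0.00859). GYUW2K402ILD6S, also a single read, had levels of 9.0, 10.02 and 9.75 in CT, 6.54, 7.87 and 6.32 at EC20, and 7.76, 5.80 and 4.25 at EC50, with log2 fold changes of -2.68 ± 0.89 and -3.65 ± 0.89 (limma adjusted p = 0.0392 and 0.00501). Both under-expressed probes lost their call at EC20 without replicate 2 or 3 of CT or replicate 1 of EC20, with limma adjusted p from 0.0781 to 0.152, and the second also without replicate 3 of EC20 (0.119). At EC50 both lost it without replicate 3 of CT (0.0701 and 0.0501), and the first also without replicate 2 of EC50 (0.0732). Neither over-expressed probe lost its call at EC20 when any 1 array was left out, and contig13709 lost it at EC50 only without replicate 2 of EC50 (limma adjusted p = 0.0542). With slide as a fixed block GYUW2K401DLXG6 did not pass at EC20 or EC50 (limma adjusted p = 0.0948 and 0.123), nor GYUW2K402ILD6S at EC20 (0.0593), and with scan day as a block neither passed at EC20 (0.0528 and 0.0958). Normexp background correction, which called few probes, adds 50 intensity units to each signal. This offset makes the fold changes of dim probes smaller by construction. With it contig09843 kept its call at EC20 only, and the dim contig13709 stood at a log2 fold change of 0.77 at either dose without passing. Neither under-expressed probe passed at EC20 or EC50 (limma adjusted p = 0.051 to 0.0885).

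**Figure D3:**
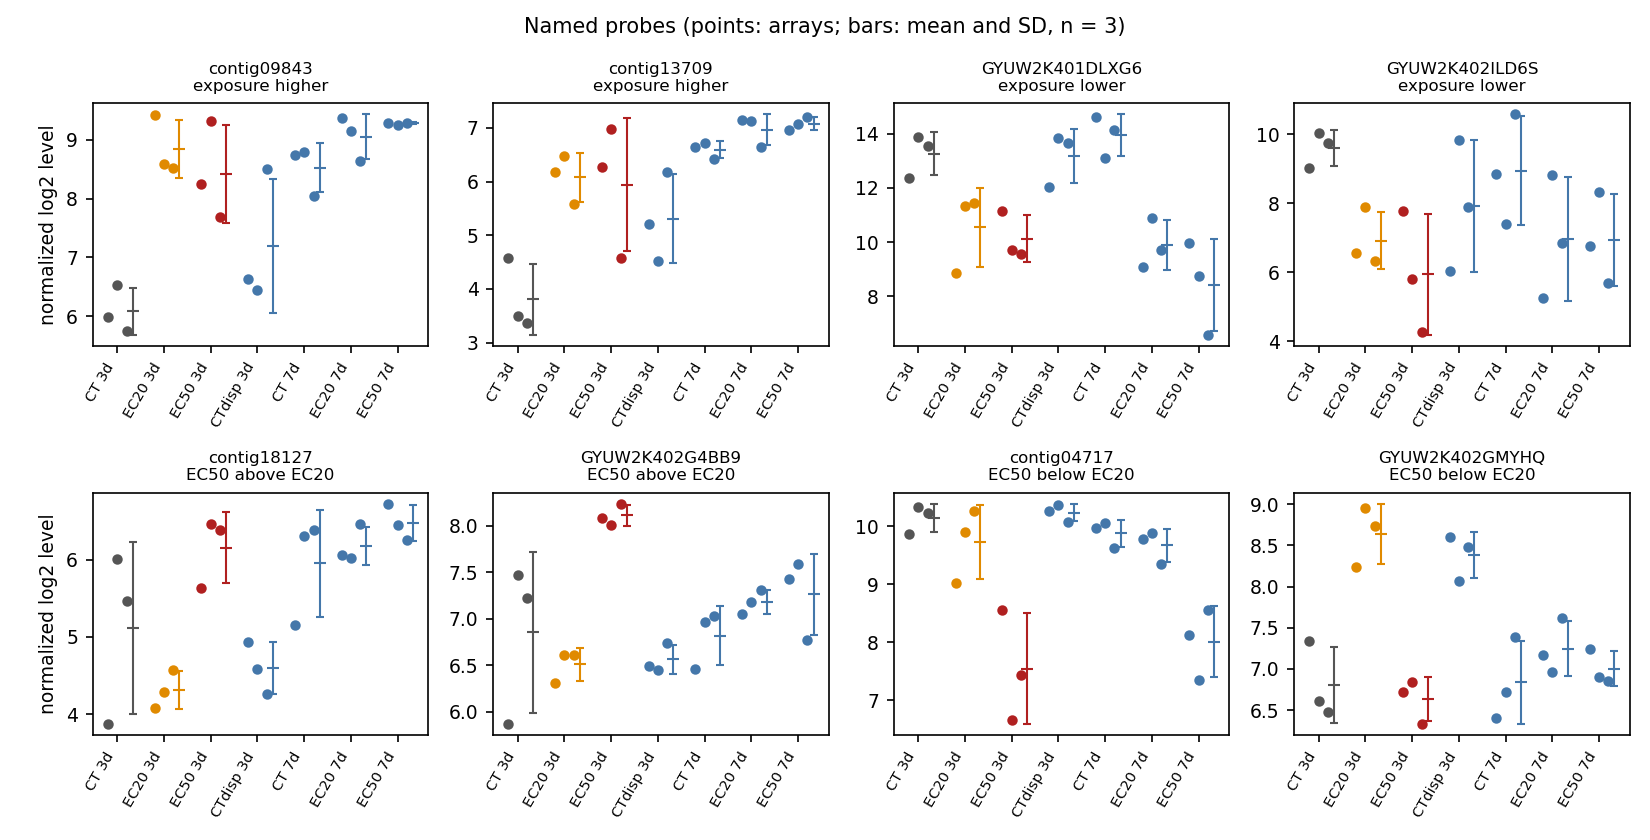
Normalized log2 level of the 8 named probes in AgNO3 at 3 d, its control, dispersant soil at 3 d (CTdisp) and the 7 d groups, with 1 point per array and the mean and SD (n = 3) beside the points. The group means of contig09843 and contig13709 are lowest in CT at 3 d, and every array of GYUW2K401DLXG6 is lower in the AgNO3 groups than in the silver-free groups.

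Larger fold changes than these were measured where arrays of a group disagreed. The highest log2 fold change of any probe at both doses, 5.33 at EC20 and 4.65 at EC50 (limma adjusted p = 0.00197 and 0.0054), belonged to a probe with levels of 7.86, 5.90 and 4.03 in CT, 11.65, 13.11 and 9.0 at EC20, and 11.56, 13.04 and 7.12 at EC50, where CT and AgNO3 overlapped. This probe was singled out after its values were seen. In 7 probes over-expressed in the mean of both doses, no CT array was well above background and all 6 AgNO3 arrays were. Their change is at least 3.21-fold in the median and at least 3.68-fold in the highest, taking as the CT level the higher of the probe's own signal and the lowest signal well above background on the array.

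The calls are split here by the kind of sequence and by level, with no test of the split. At EC20, 1703 of 11180 contig probes (15.2%) and 1119 of 11999 single-read probes (9.33%) were over-expressed, and at EC50 2167 (19.4%) and 1913 (15.9%). The median log2 fold change was 0.27 for contigs and 0.12 for single reads at EC20, and 0.36 and 0.21 at EC50. Under-expressed at EC20 were 65 contig and 88 single-read probes. Over 5 classes of equal size by mean level, the median fold change varied little, from 0.18 to 0.22 at EC20 and from 0.26 to 0.30 at EC50. From the dimmest to the brightest class, the over-expressed share was 7.81%, 12.3%, 14.3%, 13.4% and 13.0% at EC20, and 7.68%, 13.5%, 21.4%, 22.1% and 23.3% at EC50.

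Set against each other with no control in between, the doses differed in few probes. EC50 minus EC20 was called for 81 probes (0.349%), of which 36 were higher (0.155%) and 45 lower (0.194%) at EC50, with median log2 differences of 1.15 and -1.36. The median difference of all probes was 0.06. The 3 EC50 arrays lay above the 3 EC20 arrays in 1410 probes (6.09%) and below in 657 (2.84%), and of the called probes 34 of 36 and 44 of 45 did not overlap. The split by direction was not settled. Of the 66 calls after Median normalization 19.7% were higher at EC50, and of the 63 after MedianCD normalization 23.8%. Without replicate 3 of EC20 2472 probes were called and 94.0% of them were higher at EC50, whereas without replicate 1 of EC20 68 were called and 0 were higher. The calls numbered 368 without replicate 2 of EC20, 146 without replicate 2 of EC50 and 35 without replicate 3 of EC50, and 9 of the 81 remained in every fit that left out 1 array. With only the 6 arrays in the model limma called 0, with 818 at an unadjusted p below 5%. On scan day 3 alone, with 1 EC20 array, 8 were called.

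Most probes called between the doses lay on opposite sides of CT at the 2 doses. Of the 36 higher at EC50, 32 lay below CT at EC20 and above it at EC50. The 36 had medians of -0.48 and 0.62 from CT, and EC20 was the dose farther from CT in 12 of the 36. Against CT 18 were called at EC50 only, 5 at EC20 only and 13 at neither dose. Of the 45 lower at EC50, 26 lay above CT at EC20 and below it at EC50 and 17 above it at both. Their median was 1.22 above CT at EC20 and -0.14 from it at EC50, and EC20 was farther from CT in 37 of the 45. At EC20 only 32 of them were called against CT, at EC50 only 7, at both 2 and at neither 4. Of all probes, 12.8% were called against CT at EC20 and 18.0% at EC50. The choice of both sets used the AgNO3 arrays, so that their distances from CT are partly set by it.

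Contig04717 had the lowest difference among the 32 probes lower at EC50 that were well above background on all 6 AgNO3 arrays without overlap. Its log2 level was 9.02, 9.90 and 10.26 at EC20 and 8.55, 6.66 and 7.43 at EC50, beside 9.86, 10.33 and 10.23 in CT. EC20 lay near CT and all EC50 arrays lay below both. The difference between the doses was -2.18 ± 0.34 (SE, n = 3 against 3), or 4.53-fold (limma adjusted p = 0.000941). On the arrays of 7 d it stood at 8.13, 7.35 and 8.55 at EC50, 9.78, 9.88 and 9.34 at EC20, and 9.96, 10.04 and 9.61 in un-spiked soil. All EC50 arrays were again the lowest. There the log2 fold change of EC50 against un-spiked soil was -1.86 ± 0.34 (limma adjusted p = 0.00796), and EC50 minus EC20 did not pass the test (-1.66, limma adjusted p = 0.111). With normexp background correction, the difference between the doses at 3 d was -1.80 and did not pass either (limma adjusted p = 0.114). GYUW2K402GMYHQ was the other named probe of this kind, with 8.24, 8.95 and 8.73 at EC20, 6.73, 6.84 and 6.33 at EC50, and 7.34, 6.61 and 6.48 in CT. Here EC50 overlapped with CT and EC20 lay above both, with a difference of -2.01 ± 0.26 between the doses, or 4.02-fold (limma adjusted p = 1.04e-05), and of 1.83 ± 0.26 between EC20 and CT (limma adjusted p = 1.83e-05).

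In the other direction, contig18127 had the highest difference among 26 such probes, with levels of 4.09, 4.29 and 4.57 at EC20, 5.63, 6.45 and 6.38 at EC50, and 3.88, 6.01 and 5.47 in CT. The doses did not overlap, but the CT arrays spread over both. EC50 minus EC20 was 1.84 ± 0.42 (limma adjusted p = 0.0289), and neither dose passed the test against CT. GYUW2K402G4BB9 had 6.31, 6.61 and 6.61 at EC20, 8.09, 8.01 and 8.24 at EC50, and 5.87, 7.47 and 7.22 in CT, a difference of 1.60 ± 0.32 (limma adjusted p = 0.0138). Its EC50 arrays lay above all CT and EC20 arrays, and EC50 passed the test against CT with a log2 fold change of 1.26 ± 0.32 (limma adjusted p = 0.00702). Both probes lost the call between the doses without replicate 1 of EC20 or replicate 3 of EC50, with limma adjusted p from 0.063 to 0.204, and contig18127 also without replicate 2 of EC50 (0.119). Neither passed with slide as a fixed block (0.118 and 0.0579), nor contig18127 with scan day as a block (0.105). With normexp background correction the differences were 0.69 and 1.01 and did not pass (0.804 and 0.114).

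**Figure D4:**
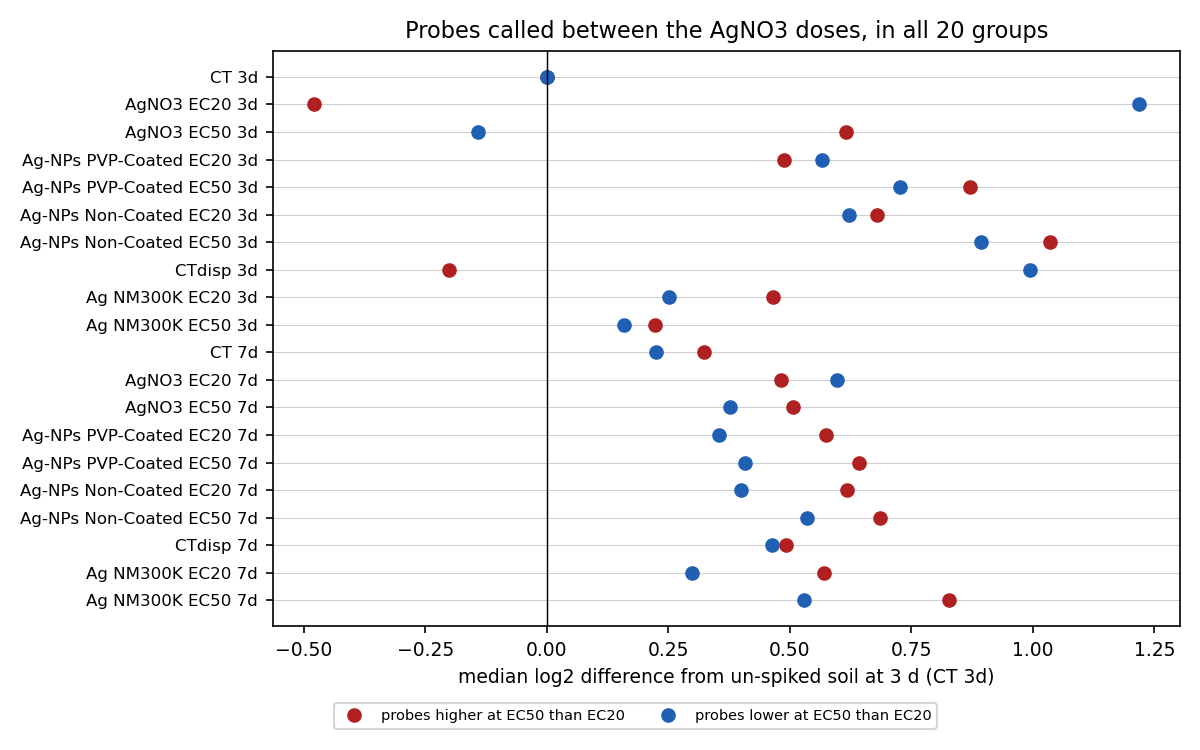
For the 36 probes higher (red) and the 45 lower (blue) at EC50 than at EC20, each row gives the median log2 difference of a group from CT at 3 d. The blue set stands at 1.22 in AgNO3 EC20 and -0.14 in AgNO3 EC50 at 3 d, and at 0.99 in silver-free soil with dispersant (CTdisp) at 3 d.

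The difference between the doses was set beside the same difference in other exposures, which share no arrays with it. After 7 d of AgNO3, 31.4% of all probes were higher at EC50 than at EC20, and of the sets above 18 of the 36 were again higher and 38 of the 45 again lower. For PVP-coated particles at 3 d, 78.2% of all probes were higher at EC50, with 34 of the 36 higher and 9 of the 45 lower. For Non-Coated particles 78.6% of all probes were higher, with 34 of the 36 higher and 5 of the 45 lower, and for Ag NM300K 46.2%, with 4 and 33. Of the 81 probes, 3 were called in the same direction in Non-Coated particles, where 2786 of all probes (12.0%) were called. In the other 3 exposures 0 were, but there at most 1 of all probes was called.

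Since CT had the lowest mean level, AgNO3 was also set against the silver-free soil with dispersant at 3 d, which is the study's control of Ag NM300K and not of AgNO3. This comparison was chosen after the data had been seen. It called 14 probes at EC20 (0.0604%), 8 of them higher (0.0345%), and 131 at EC50 (0.565%), 52 higher (0.224%) and 79 lower (0.341%) (limma, false discovery rate below 5%), with 1688 and 2370 at an unadjusted p below 5%. The median log2 fold change of all probes was -0.0026 at EC20 and 0.07 at EC50. Of the EC20 calls against un-spiked soil 11 were called with the same sign, and of the EC50 calls 54. Dispersant soil itself differed from CT in 1290 probes (5.57%), 1264 of them higher (5.45%). The 1727 probes over-expressed at both doses were higher in dispersant soil than in CT by a median of 0.62, against 0.22 for all probes, and in the un-spiked soil of 7 d by 0.74, against 0.24. At EC20 and EC50 they stood 0.19 and 0.21 above dispersant soil, with 7 and 9 of them called higher, and 0.07 above the un-spiked soil of 7 d at either dose. The choice of the 1727 used the CT and the AgNO3 arrays, so that low values in CT and high values with AgNO3 are part of it, and whether these differences come from silver or from the 3 CT pools was not tested.

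For the 45 probes lower at EC50, the dose that stood apart changed with the silver-free group. They had a median of 0.04 from dispersant soil at EC20 and of -1.23 at EC50, so that EC50 was the farther dose in 40 of 45, whereas against un-spiked soil EC20 was the farther in 37. At EC50, 30 of the 45 were called lower than in dispersant soil, against 0.341% of all probes. The 36 higher probes had medians of -0.26 and 0.81, and EC50 was farther from dispersant soil in 29 of them. At EC50 11 were called higher, against 0.224% of all probes. The choice of both sets used the EC20 and EC50 arrays, so that low or high values at EC50 are part of it. GYUW2K402GMYHQ had log2 levels of 8.60, 8.07 and 8.48 in dispersant soil, overlapping those at EC20. Contig04717 stood at 10.26, 10.37 and 10.07 there, near un-spiked soil, and was lower at EC50 against either control (-2.69 against dispersant soil, limma adjusted p = 2.05e-05).

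**Figure D5:**
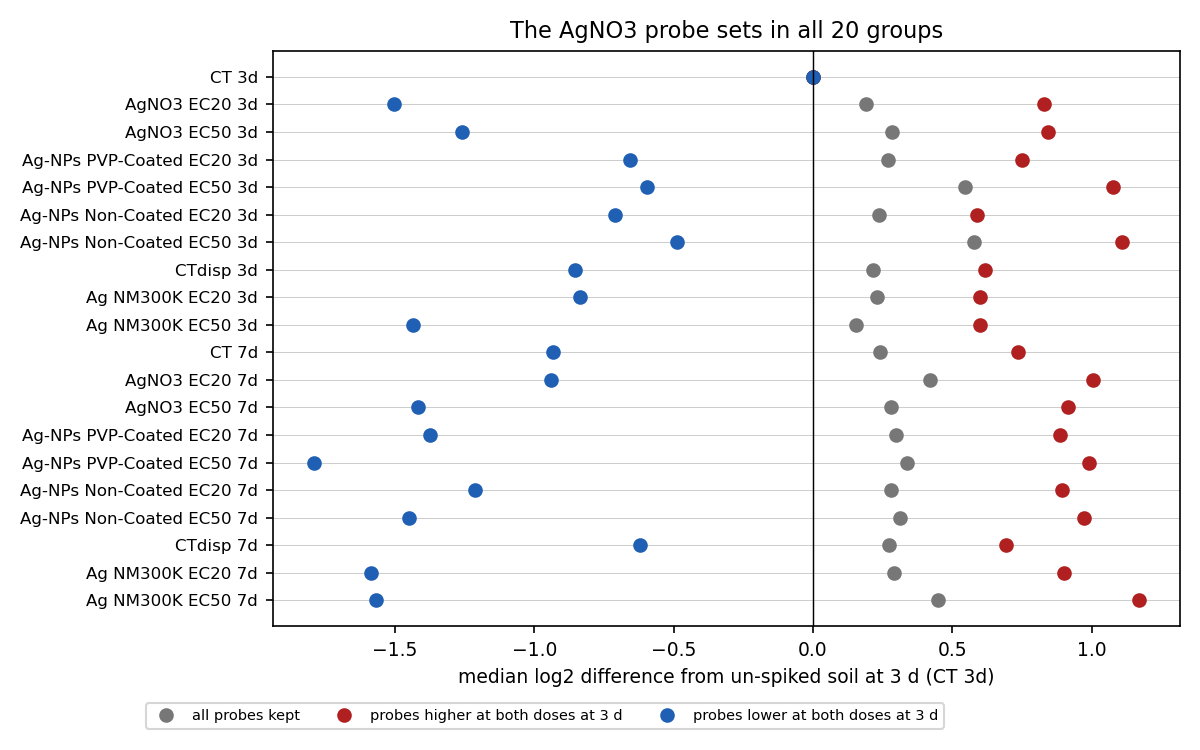
Each row gives, for 1 of the 20 groups, the median log2 difference from CT at 3 d of all probes (grey), of the 1727 probes over-expressed (red) and of the 24 under-expressed (blue) at both doses of AgNO3 at 3 d. The red set lies between 0.59 and 1.17 in the silver groups and between 0.62 and 0.74 in the 3 other silver-free groups.

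The silver-free groups also differed in the named probes. Contig09843 had a log2 level of 6.08 ± 0.40 (SD, n = 3) in CT at 3 d, 8.52 ± 0.42 in the un-spiked soil of 7 d and 7.19 ± 1.14 in dispersant soil at 3 d, beside 8.84 ± 0.50 at EC20 and 8.42 ± 0.83 at EC50. Between 3 and 7 d without silver it rose by 2.44 ± 0.39 on the log2 scale (limma adjusted p = 6.64e-05). At 3 d, EC20 and EC50 lay 2.76 and 2.34 above CT. All of these differences are taken from the same CT arrays of 3 d. Contig13709 rose by 2.79 ± 0.41 between 3 and 7 d without silver (limma adjusted p = 3.1e-05). Against dispersant soil, the log2 fold change of contig09843 was 1.65 at EC20 and 1.23 at EC50, and did not pass the test (limma adjusted p = 0.0962 and 0.168). That of contig13709 was 0.77 and 0.63 (limma adjusted p = 0.744 and 0.668), and dispersant soil was itself above CT by 1.5 (limma adjusted p = 0.0243). The group means of GYUW2K401DLXG6 were 13.2 to 13.9 in the 4 silver-free groups and 5.06 to 10.5 in the 16 silver groups of the series, of which AgNO3 EC20 at 3 d was the highest. Against dispersant soil it stood at -2.63 and -3.05, which did not pass the test with these standard errors (limma adjusted p = 0.284 and 0.077). GYUW2K402ILD6S had means of 7.91 to 9.59 in the silver-free groups and 5.29 to 7.22 in the silver groups, but its dispersant arrays at 3 d stood at 6.02, 9.84 and 7.87. Against them it stood at -1.0 at EC20 and -1.97 at EC50 (limma adjusted p = 0.969 and 0.422).

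Fewer probes were called at 7 d, measured on other arrays and against their own un-spiked soil. The mean of both doses gave 4946 calls at 3 d (21.3%), 4810 over-expressed (20.8%) and 136 under-expressed (0.587%), and 74 at 7 d (0.319%), with median log2 fold changes of 0.24 and 0.10 over all probes. The 1727 probes over-expressed at both doses at 3 d had a median of 0.21 at 7 d, and 85.8% of them were above control, against 64.6% of all probes. At 7 d 23 of them were called over-expressed, against 62 of all 23179 (0.267%), and 12 of all (0.0518%) were called under-expressed. Of the 24 under-expressed probes, 20 were below control at 7 d, with a median of -0.36, and 3 were called. GYUW2K401DLXG6 was among them, with a log2 fold change of -4.78 ± 0.72 in the mean of both doses (limma adjusted p = 0.000238), and contig09843 stood at 0.64 ± 0.34 (limma adjusted p = 0.539). The change of the effect between 3 and 7 d was itself called for 34 probes (0.147%), higher at 3 d in 31 (0.134%) and lower in 3 (0.0129%). The calls of the mean at 3 d were 800 without replicate 3 of CT, 7553 and 2821 without replicates 1 and 3 of EC20, and 2505 without replicate 2 of EC50.

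Few probes passed from not positive to positive against background with AgNO3. Over all 43750 gene probes, 5410 were positive against background on no CT array at 3 d, and 21 of these (0.388%) were positive on all 6 AgNO3 arrays. In the other direction, 28672 were positive on all 3 CT arrays, and 14 of these (0.0488%) on no AgNO3 array. None of the 21 was well above background on all 6 AgNO3 arrays.

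At the same nominal effect level, the study's PVP-coated and Non-Coated particle treatments held several times more silver per kg of soil than AgNO3. AgNO3 differed from the mean of these particles at the same effect level, with no control in between, in 1175 probes at EC20 (5.07%), 216 higher (0.932%) and 959 lower (4.14%) in AgNO3, and in 3472 at EC50 (15.0%), 50 higher (0.216%) and 3422 lower (14.8%). After Median normalization these were 894, 41.3% of them higher in AgNO3, and 237, 20.7% of them higher. At EC20 the calls were 368 and 2848 without replicates 1 and 3 of AgNO3, of which 69.0% and 4.81% were higher in AgNO3, so that the direction turned without replicate 1. They were 781 without replicate 1 of PVP-Coated and 715 without replicate 2 of Non-Coated. At EC50 they were 444, 6163 and 448 without replicates 1, 2 and 3 of AgNO3, 2064 and 1711 without replicates 1 and 3 of PVP-Coated, and 5971, 1918 and 1217 without replicates 1, 2 and 3 of Non-Coated.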

How the data were processed

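Each of the 60 arrays was a custom 1-colour Agilent array with 45167 spots. The authors scanned the arrays and extracted the spots with Agilent Feature Extraction 10.7.3.1, and the deposited intensity values are its background-subtracted processed signals, before any normalization between arrays. The values of the deposited series table differ from them by at most 0.498%. Control spots (1417) were left out, as were 308 outlier spots, and no gene spot was saturated. The 23179 gene probes (53.0%) that were positive and significant against background on every array were kept, and log2 was taken.

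Arrays were normalized by SVCD, the method of the study, which sets the scale within groups from all probes and between groups from probes found not to vary (6587 of 22880), so that the groups' medians may differ. It was written anew for this work in R 4.3.3. One linear model over the 20 groups was fitted with limma 3.58.1 with moderated variances, and probes were called at a Benjamini-Hochberg false discovery rate below 5% in each comparison. The standard errors and p-values of the single comparisons therefore use the spread of all 60 arrays. The median probe spread more widely in CT, EC20 and EC50 at 3 d than in the median group, so these standard errors may be too small there. The number of arrays, 3 per group, limits the precision.

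Probes were named by a rule: from those called at both doses with 1 sign, well above background on all 9 arrays and with no overlap between CT and AgNO3, the 2 highest and 2 lowest by the smaller fold change, and likewise for EC50 minus EC20. The comparisons, lists and rule were chosen with earlier results of these data known. Deviations from the group means correlated between same-numbered arrays in every pair of EC50 with CT (0.19 to 0.30) and with EC20 (0.26 to 0.28), and not in every pair of CT with EC20 (-0.10 to 0.16). Pairs of unlike numbers ran from -0.39 to 0.38, the highest being replicate 2 of CT with replicate 3 of EC20. In CT and EC50, replicate 1 was scanned on day 1 and replicates 2 and 3 on day 3. The labels state no pairing, and whether the numbers pair the arrays was not tested. Other normalizations, background correction, filters, tests, blocks for slide and scan day, and leaving out each array were tried. The fitting steps were tested on simulated data. Those were independent normal values with the same spread of a probe in every group and no slide or scan-day effects. They therefore cannot show how the fit behaves with such effects or with the wider spread of these groups. The files used here pair the probes with no annotation, and no probe sequence was analysed.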

Additional observations from a re-analysis of the deposited data

Results flagged for a closer look

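The effect of AgNO3, as the mean of both doses, differed between 3 and 7 d for 34 probes by a test of the difference itself (limma interaction, false discovery rate below 5%), 31 of them in the direction of a larger change at 3 d. Of these 31, 28 belong to the 1727 probes over-expressed at both doses at 3 d, which were 7.45% of all probes. Both lists use the same AgNO3 and CT arrays of 3 d, so that this overlap is favoured by the design. The count ran from 1 to 295 when 1 of the 18 arrays was left out, and moved by more than 1.5 times for all but 2 of them.

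Outside the probes analysed, signal against background was counted over all 43750 gene probes. A total of 21 probes were positive on all 6 AgNO3 arrays and on no CT array at 3 d, out of 5410 that were positive on no CT array (0.388%). At EC20 146 probes were positive on all 3 arrays and on no CT array, and at EC50 83. In the opposite direction, 14 of 28672 probes positive on all CT arrays (0.0488%) were positive on no AgNO3 array, 54 on no EC20 array and 76 on no EC50 array. None of the 21 was well above background on all 6 AgNO3 arrays. At 7 d, 8 of the 21 were positive on all 3 arrays of un-spiked soil and 12 on all 6 AgNO3 arrays. The share of positive probes of the CT arrays ran from 72.9% to 83.0%, and its part in these counts was not tested.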

How the results depend on the processing

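The counts of called probes depended on the processing, and for each change below the cause was not tested. Normexp was run with an offset of 50 intensity units, which makes the fold changes of dim probes smaller by construction. In the order EC20, EC50, mean of both doses (main 2975, 4168, 4946), the calls were 861, 181 and 812 after Median normalization, 910, 189 and 899 after Quantile, 847, 190 and 825 after scaling to the 75th percentile, 70, 9 and 56 after scaling to the spike-in, and 32, 7 and 48 with normexp background correction. The over-expressed share of these was 72.4% to 78.0% at EC20 and 61.9% to 65.1% at EC50 for Median, Quantile and the 75th percentile, 94.3% and 33.3% with the spike-in, and 71.9% and 0% with normexp. Of EC50 minus EC20, 19.7% to 26.7% were higher at EC50 under MedianCD, Median, Quantile and the 75th percentile (63 to 75 calls) and 0% with the spike-in or normexp. They were 0, 0 and 55 with only the compared groups in the model, 0, 0 and 0 with SVCD over these groups alone, and 0, 1 and 20 with the methods' t-test after Benjamini-Hochberg. The EC50 calls were 2767 over all gene probes and 2305 with slide as a fixed block. Among alternatives chosen after seeing the data, they were 14, 131 and 30 against dispersant soil, 242, 50 and 118 after Median normalization without replicate 3 of CT, 1476 (EC20) and 2038 (mean) without replicate 3 of CT and replicate 1 of EC20, and 341 (EC20) and 2150 (EC50) on scan day 3.

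For EC50 minus EC20 (main 81) the calls were 6 with the spike-in, 4 with normexp, 43 over all gene probes, 0 with only its groups in the model or in SVCD, 0 with the methods' t-test after Benjamini-Hochberg and 975 at its unadjusted threshold, 284 with slide as a random block (within-slide correlation 0.354) and 8 on scan day 3. For the change between 3 and 7 d (main 34) they were 6 with MedianCD, 1 with Median, Quantile or the 75th percentile, 0 with the spike-in, 2 with normexp, 69 with probes well above background, 6 over all probes, 17 with the filter on the 9 arrays, 1 and 2 with fewer groups in the model or in SVCD, 3 and 2467 with the methods' t-test adjusted and unadjusted, 107 and 314 with slide as a fixed and random block, and 7 with scan day. For AgNO3 against particles at EC20 (main 1175) they were 2166 with the spike-in, 2135 with normexp, 338 and 309 with fewer groups, 38 and 3230 with the methods' t-test and 484 with scan day. At EC50 (main 3472) they were 7571 with MedianCD, 237, 193 and 242 with Median, Quantile and the 75th percentile, 10859 with the spike-in, 3 with normexp, 2208 with probes well above background, 1222 and 57 with fewer groups, 1525 and 6407 with the methods' t-test and 1105 with slide as a fixed block.

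Leaving out 1 array moved the calls from 617 to 6192 at EC20, 328 to 5971 at EC50, 800 to 7553 for the mean, 35 to 2472 for EC50 minus EC20, 1 to 295 for the change with time, 368 to 2848 against particles at EC20 and 444 to 6163 at EC50. With the number as a replicate block the calls were 3000 at EC20, 4243 at EC50 and 82 between the doses, and the block changed no call of a named probe and no other count by over 1.5 times. Of 188 values of the named probes under alternatives, 53 no longer passed the test and none changed sign. Dim probes limit the fold changes: 4031 of the 4810 probes over-expressed in the mean were well above background on all 9 arrays.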
